A study of Mus musculus with 13 samples.

Results

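The 33 genes described here are the transcripts by which reactive astrocytes are usually recognised, chosen by symbol from a table of 39171 genes measured in 13 mouse spinal cord libraries. They were taken by name, with no threshold on their values, and most of the names belong to published panels of reactive astrocyte genes. Of the 33 genes, 3 encode intermediate filaments (Gfap, Vim and Nes), and the rest were grouped as 10 pan-reactive, 8 A1 and 12 A2 genes. Gfap and Vim are counted here with the filaments and not as pan-reactive. Stat3 is counted here with the A2 genes for convenience, which does not make it an A2 marker. Each gene was found, and Clcf1 had 2 entries under its symbol, of which the one listed at 0 in every library was set aside.

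RNA was measured in sorted spinal cord cells of C57BL/6 mice that lacked Il33 (KO) or were littermate controls (WT). Il33 encodes an alarmin cytokine that astrocytes make. Astrocytes were sorted by GFP from the Aldh1l1-GFP reporter, which WT and KO astrocyte donors both carried, and microglia were sorted by surface CD11b, which other myeloid cells also carry. There were 3 WT and 4 KO astrocyte libraries and 3 WT and 3 KO microglia libraries. WT astrocytes 3 and KO astrocytes 2 came from postnatal day 9 (P9) and the other 11 libraries from postnatal day 12 (P12). The deletion is carried by the whole animal, so KO microglia also lacked the gene, and no injury or drug treatment is given in the labels.

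Astrocytes that meet injury, inflammation or disease thicken their processes, build more intermediate filament and switch on secreted proteins, protease inhibitors and cytokine receptors. Cytokines of the interleukin-6 family act through the receptor chain gp130 and the transcription factor STAT3 to raise Gfap and Vim, and interleukin-1 and tumour necrosis factor act through NF-kB. The A1 and A2 panels were drawn up from astrocytes after endotoxin and after ischaemia, and A1 induction has been tied to signals from microglia. In the healthy spinal cord, fibrous astrocytes of the white matter hold much Gfap without any injury.

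Of the members' promoters that carry a STAT or NF-kB motif, 4 are shown as examples; these motifs were searched because they belong to factors named above. The STAT motif TTCNNNGAA and the NF-kB motif (GGG, any 2 bases, then TTTCC) were searched on both strands in the RefSeq promoters of build GRCm38.p6, which run from 250 bases before each RefSeq start. Promoters were matched for 28 of the 33 members. The STAT motif lay in 5 of the 28 (17.9%), namely Gfap, Emp1, Sphk1, Steap4 and Tgm1, against 9.55% of 27025 genes of the promoter table. The NF-kB motif lay in 3 of the 28 (10.7%), namely Serpina3n, Steap4 and Vim, against 1.89% of all genes. A match of letters is a description and not a binding site. In the sequences below the motifs are in capitals and the rest is in lower case.
Gfap promoter, chr11:102897194-102897450, minus strand, GRCm38.p6: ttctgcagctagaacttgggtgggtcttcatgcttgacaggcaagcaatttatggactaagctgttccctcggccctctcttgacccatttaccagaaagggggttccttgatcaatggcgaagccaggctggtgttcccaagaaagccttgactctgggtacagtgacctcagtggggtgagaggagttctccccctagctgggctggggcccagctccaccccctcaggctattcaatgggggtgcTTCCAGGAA
Serpina3n promoter, chr12:104406458-104406717, plus strand, GRCm38.p6: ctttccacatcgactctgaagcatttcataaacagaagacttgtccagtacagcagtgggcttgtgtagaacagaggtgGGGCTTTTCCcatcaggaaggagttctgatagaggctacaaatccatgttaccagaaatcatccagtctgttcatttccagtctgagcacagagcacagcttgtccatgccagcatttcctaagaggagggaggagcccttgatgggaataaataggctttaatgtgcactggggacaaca
Emp1 promoter, chr6:135362708-135362903, plus strand, GRCm38.p6: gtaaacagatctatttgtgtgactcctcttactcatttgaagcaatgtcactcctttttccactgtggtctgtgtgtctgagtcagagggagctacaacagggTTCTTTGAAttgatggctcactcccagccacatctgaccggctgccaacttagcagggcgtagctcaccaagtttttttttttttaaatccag
Steap4 promoter, chr5:7960222-7960456, plus strand, GRCm38.p6: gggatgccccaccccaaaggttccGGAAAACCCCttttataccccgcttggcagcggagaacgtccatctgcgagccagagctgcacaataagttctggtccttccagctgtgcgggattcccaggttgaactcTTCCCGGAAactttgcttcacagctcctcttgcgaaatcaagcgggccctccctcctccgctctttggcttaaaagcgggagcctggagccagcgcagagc
The Gfap motif began 2 bases before the RefSeq start and ran past it, whereas that of Serpina3n began 171 bases before it. Steap4 held both motifs, with the NF-kB motif 226 and the STAT motif 116 bases before its start. Emp1 held a STAT motif 120 bases before its start and another 22 bases before it, which is outside the stretch shown. That stretch leaves out 64 bases on its 2 sides that GENCODE annotates as untranslated exon. GENCODE starts Emp1 at chr6:135362545, before the stretch, so the stretch lies within a longer annotated gene. The Vim motif, GGAAAGCCCC, began 223 bases before its RefSeq start, at chr2:13574088-13574097 on the plus strand, in a stretch that GENCODE annotates as untranslated exon of a longer Vim transcript. Of the 7 members that hold either motif, Gfap, Vim, Serpina3n and Emp1 were read in each astrocyte library, Steap4 and Tgm1 were listed at 0 in each, and Sphk1 had a mean of 0.0449 FPKM. Sphk1 and Tgm1 are not shown.

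Levels are given in FPKM, which counts sequenced fragments per kilobase of transcript, scaled to the size of the library, and which can therefore be set side by side between genes. Il33 was 96.3, 113 and 108 FPKM in WT astrocytes and 2.28, 2.05, 0.424 and 0.733 FPKM in KO astrocytes, as the labels require. Summed FPKM of 11 microglia markers was 8.98 to 63.7 in astrocyte libraries and 9066 to 9796 in microglia libraries, and that of 11 astrocyte markers was 9059 to 17013 in astrocytes and 85.0 to 146 in microglia. Both kinds of library also held oligodendrocyte markers (8 genes, summed), at 4530 to 8160 FPKM in astrocytes and 1069 to 2632 FPKM in microglia. Low values step by whole reads, which put the depth of the astrocyte libraries at 33.8% to 62.6% of the deepest microglia library and that of the microglia libraries at 76.8% or more, so low astrocyte values are the least certain. An exact 0 can be a failed estimate, because Slc1a2, the main astrocyte glutamate transporter, was listed at 0 in WT astrocytes 1 and KO astrocytes 3 and at 1631 FPKM or more in the other 5 astrocyte libraries. For this reason a gene at 0 is described here only as listed at 0.

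**Figure D1:**
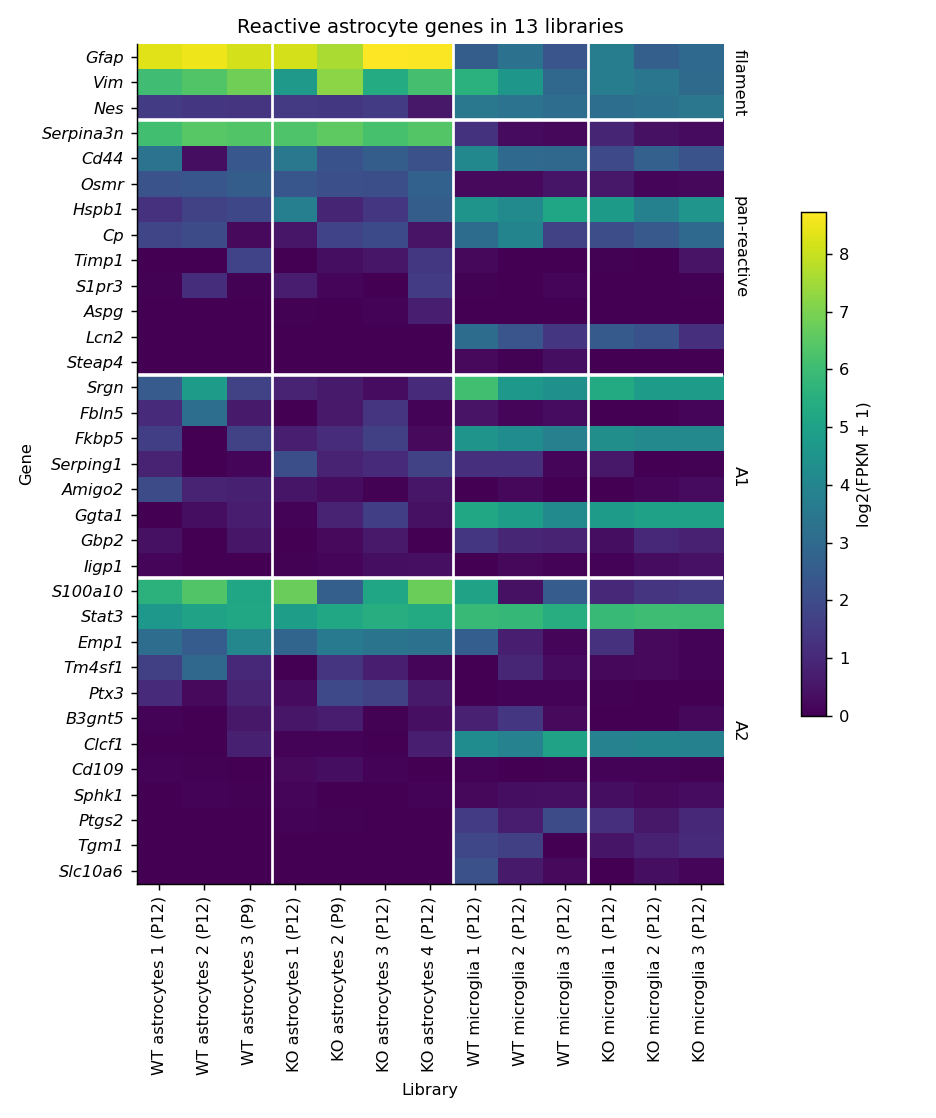
Level of the 33 reactive astrocyte genes (rows, grouped as filament, pan-reactive, A1 and A2 and ordered by mean in astrocytes) in the 13 libraries (columns), as log2(FPKM + 1) on a colour scale. Gfap, Vim, Serpina3n, S100a10 and Stat3 are bright across nearly all astrocyte libraries, Lcn2, Steap4, Tgm1 and Slc10a6 are listed at 0 there, and Ggta1, Clcf1 and Fkbp5 are bright in microglia.

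In sorted astrocytes without any injury, a few reactive genes were abundant and most were low. The mean over the 7 astrocyte libraries was at least 10 FPKM for 5 of the 33 genes, between 1 and 10 FPKM for 12, under 1 FPKM for another 12, and 0 in every library for 4. Gfap alone made up 52.6% of the summed level of the 33 genes and ranked 194 among 21224 protein-coding genes. The other 4 abundant members were Serpina3n (rank 941), Vim (rank 999), S100a10 (rank 1295) and Stat3 (rank 2235).

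Gfap, the filament protein that defines astrocytes in tissue sections, lies at chr11:102887336-102900912 on GRCm38. Its level was 323, 360 and 283 FPKM in WT astrocytes and 284, 197, 423 and 406 FPKM in KO astrocytes. The 2 genotypes overlapped fully, with the KO libraries lying on both sides of the WT libraries, and the lowest library of each genotype was the one from P9. Vim, the filament protein of immature and reactive astrocytes (chr2:13573927-13582826), was 65.2, 80.9 and 114 FPKM in WT and 25.3, 145, 40.5 and 69.8 FPKM in KO astrocytes. Again the P9 library was the extreme of each genotype, here as the highest. Nes encodes nestin, the filament protein of neural progenitors (chr3:87971078-87980451). It was low, at 1.88, 1.63 and 1.55 FPKM in WT and 1.78, 1.66, 1.87 and 0.467 FPKM in KO astrocytes, where KO astrocytes 4 stood below the rest.

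The genes grouped here as pan-reactive, which leave out the abundant Gfap and Vim, split into 1 abundant gene and 9 low ones. Serpina3n, a secreted inhibitor of serine proteases (chr12:104406729-104414329), was 67.6, 87.3 and 81.6 FPKM in WT and 79.4, 94.6, 71.1 and 83.4 FPKM in KO astrocytes. Its SD relative to its mean was the smallest of the 5 abundant members (80.7 ± 9.23 FPKM, SD, n = 7). Serpina3n belongs to a cluster of near-identical genes, so reads of its copies may be mixed into these values.

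Osmr, the receptor subunit for oncostatin M, was steady at 3.28 to 5.47 FPKM. Cd44, the hyaluronan receptor, ran from 0.261 FPKM in WT astrocytes 2 to 10.2 FPKM in KO astrocytes 1. Hspb1, a small heat-shock protein, ran from 0.887 FPKM in KO astrocytes 2 to 12.6 FPKM in KO astrocytes 1, and Cp, the copper-carrying ferroxidase ceruloplasmin, from 0.163 to 3.11 FPKM. Timp1 (an inhibitor of metalloproteinases), S1pr3 (a receptor of sphingosine-1-phosphate) and Aspg (an asparaginase) had means of 0.671, 0.557 and 0.108 FPKM and were at or near 0 in several libraries. Lcn2, the secreted iron-siderophore binder that is among the most induced genes of reactive astrocytes, and Steap4, a metalloreductase, were listed at 0 in each of the 7 astrocyte libraries.

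No A1 gene was abundant in every astrocyte library. Srgn, the core protein of a secretory granule proteoglycan (chr10:62493833-62527451), was 4.68, 26.7 and 2.25 FPKM in WT and 0.767, 0.546, 0.230 and 1.06 FPKM in KO astrocytes. All 3 WT libraries were above all 4 KO libraries, and WT astrocytes 2 was far above the other 2. Fbln5, an elastic fibre protein, reached 7.83 FPKM in WT astrocytes 2 and was at most 1.57 FPKM elsewhere. Fkbp5, a glucocorticoid-induced chaperone, ran from 0.0146 to 2.2 FPKM. Serping1, the C1 inhibitor of complement, was 0.800, 0 and 0.0783 FPKM in WT and 3.30, 0.803, 1.11 and 2.22 FPKM in KO astrocytes, so that its groups touched without overlap. Amigo2 (an adhesion protein), Ggta1 (a galactosyltransferase), Gbp2 and Iigp1 (interferon-induced GTPases) had means of 0.815, 0.596, 0.203 and 0.110 FPKM. Gbp2 and Iigp1 have close copies in the genome, so their values are uncertain.

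Of the genes grouped here as A2, S100a10 and Stat3 were at high levels, and Stat3 was placed there by this grouping alone. S100a10, the small calcium-binding family protein that pairs with annexin A2 (chr3:93555080-93564643), was 47.6, 81.3 and 34.6 FPKM in WT and 105, 5.27, 34.4 and 108 FPKM in KO astrocytes, a wide range within both genotypes whose lowest value was the P9 library of the KO. Stat3, the transcription factor that carries gp130 signals (chr11:100885098-100939540), was narrower, at 24.4, 31.5 and 36.2 FPKM in WT and 28.7, 35.4, 42.6 and 38.9 FPKM in KO astrocytes. Stat3 shares 72 of its 9527 exonic bases with Stat5a on the other strand. Emp1, a membrane protein of the PMP22 family, followed at 4.79 to 15.5 FPKM. Tm4sf1, a membrane protein of the transmembrane-4 family abundant in endothelium, was 2.18, 6.63 and 0.955 FPKM in WT and 0, 1.46, 0.671 and 0.125 FPKM in KO astrocytes. Ptx3, a secreted pentraxin of innate immunity, ran from 0.161 to 2.84 FPKM. B3gnt5, Clcf1, Cd109, Sphk1 and Ptgs2 had means of 0.278, 0.216, 0.0866, 0.0449 and 0.0141 FPKM, and Tgm1 and Slc10a6 were listed at 0 in every astrocyte library. Clcf1 shares 311 of its 3806 exonic bases with another gene model on its own strand.

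**Figure D2:**
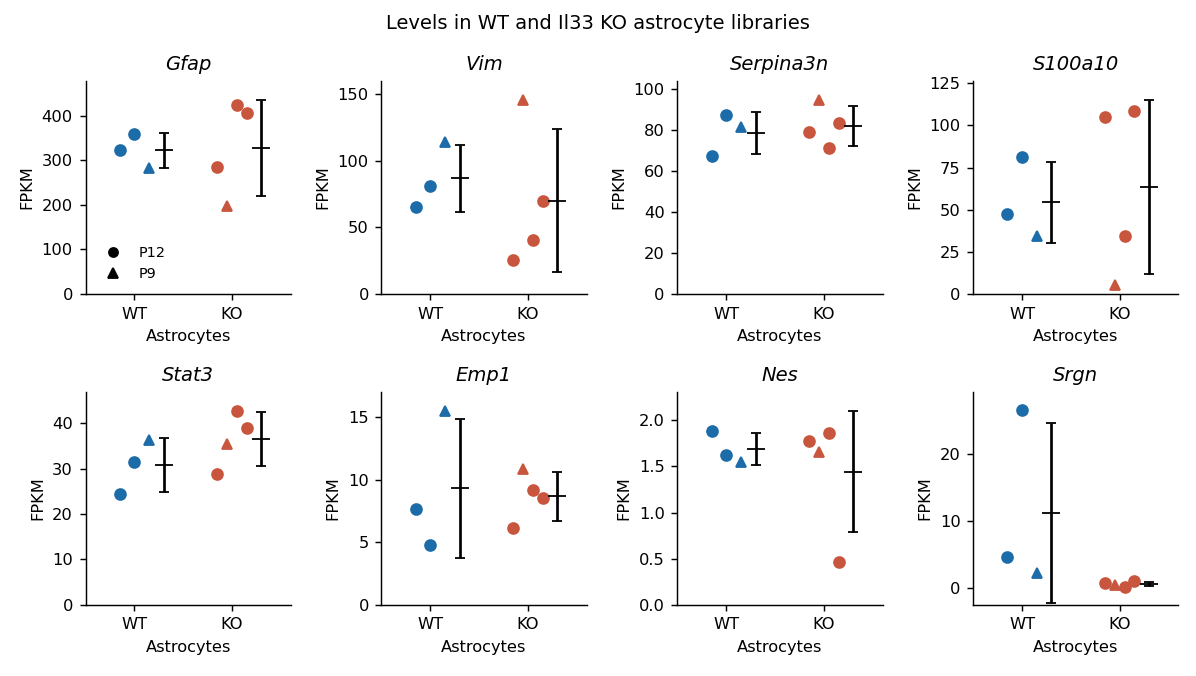
FPKM of 8 members in WT (blue) and KO (red) astrocytes; circles are P12 and triangles P9 libraries, and the black bars are the mean ± SD of 3 WT and 4 KO libraries. The genotypes overlap in each panel except Srgn, where the 3 WT libraries (2.25 to 26.7 FPKM) lie above the 4 KO libraries (0.230 to 1.06 FPKM); the P9 libraries are highest for Vim and Emp1 and lowest for Gfap.

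The comparison of KO with WT astrocytes asks whether astrocytes that cannot make IL-33 take on, or lose, reactive transcripts. No reactive gene was called changed. Of the 33 genes, 17 had a mean of at least 1 FPKM over the 7 astrocyte libraries and were tested with limma on log2(FPKM + 1) with age as a covariate. A call needed a Benjamini-Hochberg adjusted p under 0.05 over all 13397 genes tested. Calls among the 17 numbered 0, beside 3 of all genes (0.0224%), so with so few calls anywhere the absence of calls says little of these genes in particular. At an unadjusted p under 0.05, 1 of the 17 passed (Srgn), against 4.19% of all genes. Of the 17, 7 differences were positive and 10 negative, with a median of -0.083 on the log2 scale beside 0.0013 for all genes. The median ran from -0.23 (without KO astrocytes 3) to 0.092 (without WT astrocytes 3) with 1 library left out, and with P12 libraries alone it was 0.074, with 10 positive and 6 negative. Serping1 and Ptx3 passed the filter only through KO, and Srgn, Fbln5 and Tm4sf1 only through WT, so their differences are no support for a direction.

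The log2 difference of KO minus WT was -0.083 (SE 0.21, adjusted p = 0.968) for Gfap and 0.075 (SE 0.16, adjusted p = 0.960) for Serpina3n. Stat3 was at 0.26 (SE 0.22, adjusted p = 0.925). These 3 differences were no larger than the spread between libraries. Vim and S100a10 varied more, at -0.46 (SE 0.38, adjusted p = 0.925) and -0.57 (SE 0.64, adjusted p = 0.925), and Nes was at -0.18 (SE 0.42, adjusted p = 0.964). With P12 libraries alone, Gfap was at 0.10 and S100a10 at 0.23, the opposite sign in each case, so the direction of neither was settled. Without KO astrocytes 4, its lowest library, Nes was at 0.046.

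Srgn was lower in KO astrocytes by the largest margin of the 17. Its mean was 11.2 ± 13.5 FPKM (SD, n = 3) in WT and 0.650 ± 0.35 FPKM (SD, n = 4) in KO, and its log2 difference was -2.38 (SE 0.67). The adjusted p was 0.921, so the difference was not called, and it ranged from 0.561 to 0.996 over the alternatives. Without WT astrocytes 2 the log2 difference was -1.5. Groups did not overlap for 2 of the 17 genes, Srgn (lower in KO) and Serping1 (higher in KO, log2 difference 1.06, SE 0.48, adjusted p = 0.921), and for 4.68% of all genes. Fbln5 and Tm4sf1 had log2 differences of -1.15 (SE 0.70, adjusted p = 0.921) and -1.31 (SE 0.62, adjusted p = 0.921).

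Srgn, Fbln5 and Tm4sf1 were each highest in WT astrocytes 2. The summed level of 12 endothelial and mural markers was 75.9, 97.4 and 47.3 FPKM in WT and 57.5, 32.6, 66.9 and 53.9 FPKM in KO astrocytes, highest in the same library, and none of the 12 was at 0 in every astrocyte library. WT astrocytes 3 lay below 3 of the 4 KO libraries. WT astrocytes 2 was also the highest for the 11 astrocyte markers (17013 FPKM summed, against 9059 to 15143 FPKM in the other 6 astrocyte libraries). It had the lowest depth of all libraries, at 33.8% of the deepest microglia library. Summed over all genes, its FPKM was the highest (3.84e+06, against 1.68e+06 to 2.52e+06 in the other astrocyte libraries). The part of depth and scaling in its high values was not tested. Cldn5, the tight junction protein of brain and cord endothelium, was 14.0, 27.4 and 6.93 FPKM in WT and 0.351, 5.2, 2.84 and 4.85 FPKM in KO astrocytes (chosen from the list after its values were seen, and the one with the largest drop). Of 10 markers tested, 0 were called and 3 had an unadjusted p under 0.05, with a median log2 difference of -0.59. Cldn5 was at -2.03 (SE 0.68, adjusted p = 0.921), while the mural markers Vtn, Rgs5 and Pdgfrb were at 0.63, 0.10 and -0.048. The part of these cells in the Srgn difference was not tested, and in such bulk samples fewer cells of a type and less RNA per cell cannot be told apart.

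**Figure D3:**
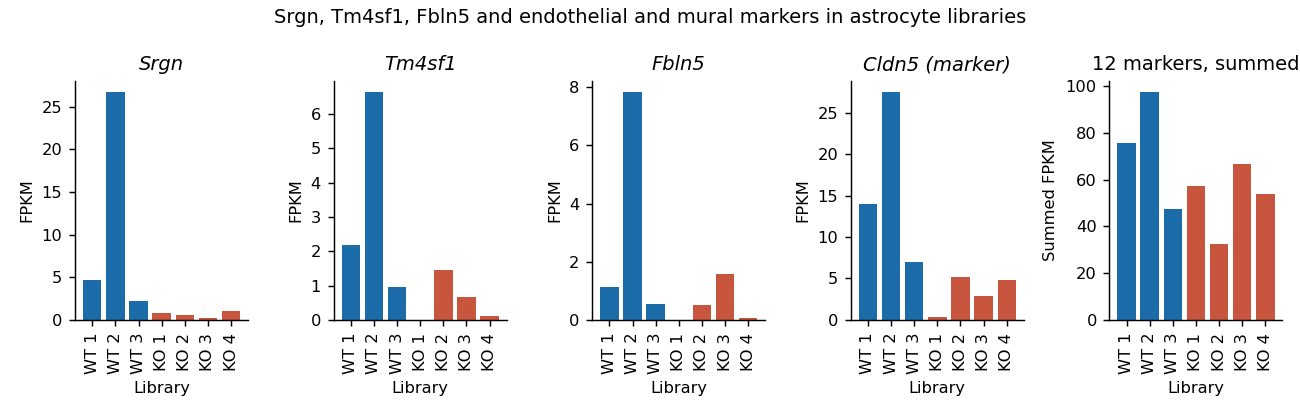
FPKM of Srgn, Tm4sf1, Fbln5 and the endothelial marker Cldn5, and the summed FPKM of 12 endothelial and mural markers, in each astrocyte library (bars from 0; blue WT, red KO). WT astrocytes 2 is the highest bar in all 5 panels, at 26.7 FPKM for Srgn, 6.63 for Tm4sf1, 7.83 for Fbln5, 27.4 for Cldn5 and 97.4 for the sum.

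The 2 P9 libraries, 1 of each genotype, were set against the 5 P12 astrocyte libraries in the same fit, since Gfap and Vim change as astrocytes mature. Of the 17 tested genes, 0 were called, beside 13 of all genes (0.097%); the count of all genes was 82 without WT astrocytes 3, 62 without KO astrocytes 2, 6 without WT astrocytes 2 and 63 in the fit of all 13 libraries. An unadjusted p under 0.05 was reached by 3 of the 17 (Gfap, Vim and S100a10) and by 8.61% of all genes. Vim was 114 and 145 FPKM at P9 and 25.3 to 80.9 FPKM at P12, with a log2 difference of 1.25 (SE 0.42, adjusted p = 0.461; 0.65 without KO astrocytes 2, 1.78 without WT astrocytes 3). Gfap was 283 and 197 FPKM at P9 and 284 to 423 FPKM at P12, with a log2 difference of -0.60 (SE 0.23, adjusted p = 0.530; -0.27 without KO astrocytes 2, -0.89 without WT astrocytes 3). S100a10 was 34.6 and 5.27 FPKM at P9, with a log2 difference of -2.28 (SE 0.71, adjusted p = 0.407), and rested largely on KO astrocytes 2, without which it was -0.83. The ages did not overlap for 3 of the 17 genes, Vim and Emp1 (higher at P9) and Gfap (lower at P9), and for 14.7% of all genes. The ratio of Vim to Gfap was 0.404 and 0.738 at P9 and 0.0888 to 0.225 at P12. The summed level of the 11 astrocyte markers was 9059 and 9287 FPKM at P9 and 10486 to 17013 FPKM at P12, where 2 libraries list Slc1a2 at 0, and 6 of the 11 had an unadjusted p under 0.05, among them the connexin gene Gjb6 with a log2 difference of -1.30 (SE 0.20, adjusted p = 0.123 with limma). That of the 11 microglia markers was 8.98 and 23.9 FPKM at P9 and 50.5 to 63.7 FPKM at P12. That of 8 neuron markers was 38.7 and 64.4 FPKM at P9 and 74.1 to 321 FPKM at P12. Summed over all genes, FPKM was also lowest at P9 (2.03e+06 and 1.68e+06, against 2.28e+06 to 3.84e+06 at P12), whereas Vim and Emp1 were higher there. The part of these markers and of the scaling in the differences by age was not tested.

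Microglia served as the reference for what a non-astrocyte holds, and they divided the panels sharply. WT microglia were compared with WT astrocytes, and KO microglia with KO astrocytes, in 1 model over the 13 libraries that also held age; the contrasts share no library but share the estimate of the spread. In each, 17 members passed the filter over the 13 libraries and 14 were called. In WT, 7 were higher and 7 lower in microglia, beside 53.6% of all genes called (29.1% higher, 24.5% lower). In KO, 8 were higher and 6 lower, beside 56.9% of all genes called (31.9% higher, 25.1% lower). In both contrasts 13 members were called in the same direction, 7 higher and 6 lower in microglia. Lcn2, Clcf1 and Ggta1 had an astrocyte mean under 1 FPKM and passed the filter only through microglia, and Serpina3n, Osmr and Tm4sf1 only through astrocytes, so the filter favours a call for each. Since so large a share of all genes was called, the direction and size say more here than the count.

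**Figure D4:**
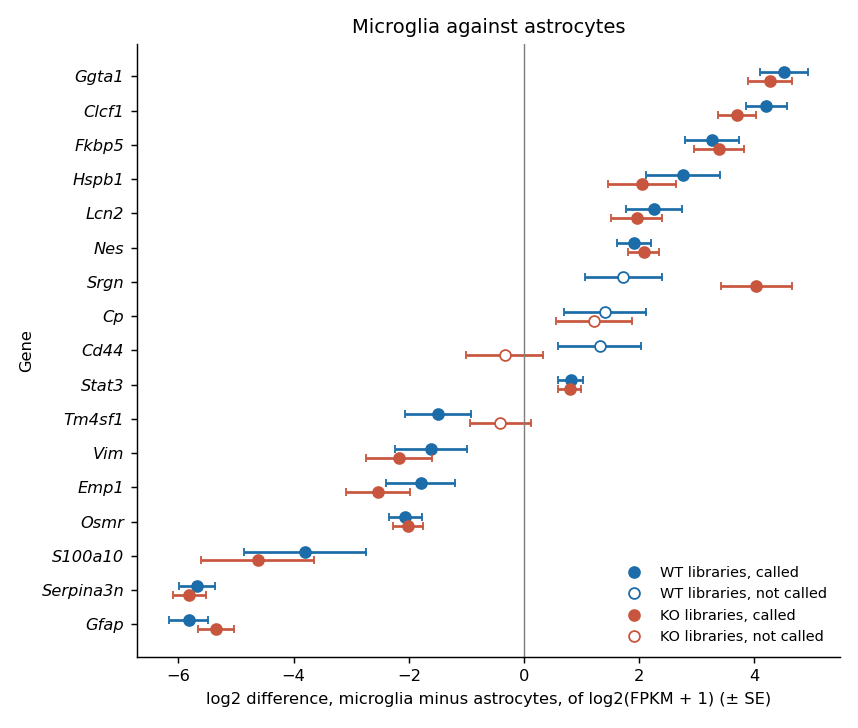
Difference between microglia and astrocytes (log2(FPKM + 1), microglia minus astrocytes, ± SE) of the 17 members tested, in WT (blue) and KO (red) libraries; filled points were called at an adjusted p under 0.05. Gfap, Serpina3n, S100a10, Osmr, Emp1 and Vim lie to the left in both genotypes and Ggta1, Clcf1, Fkbp5, Hspb1, Lcn2, Nes and Stat3 to the right.

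Gfap, Serpina3n, S100a10, Osmr, Emp1 and Vim were called lower in microglia in both genotypes, whereas the filament gene Nes and the abundant Stat3 went the other way. Gfap was 4.93, 8.53 and 3.89 FPKM in WT and 11.8, 5.18 and 6.84 FPKM in KO microglia, 47.4-fold below the astrocyte mean (log2 difference -5.82, SE 0.34, adjusted p = 2.28e-07 in WT; -5.35, SE 0.32, adjusted p = 1.81e-07 in KO). These levels were 1.2% to 3.64% of the astrocyte mean, while 10 astrocyte markers (without Slc1a2), summed, stood at 0.618% to 1.24% in the same libraries. By the means, Gfap was at 2.11%. Of the 11 single astrocyte markers, Slc1a3 was at 5.71% and each of the rest at 0.415% to 1.84%. Gfap thus lay above every marker but Slc1a3, and the source of its reads in microglia was not tested. Serpina3n was at most 1.43 FPKM in any microglia library, 155-fold below astrocytes by the means, with log2 differences of -5.67 (SE 0.32) in WT and -5.81 (SE 0.29) in KO. S100a10 was 31.7, 0.314 and 4.88 FPKM in WT and 0.979, 1.5 and 1.82 FPKM in KO microglia, with log2 differences of -3.81 (SE 1.06, adjusted p = 0.0113) and -4.62 (SE 0.98, adjusted p = 0.00215). Osmr was 0.118 to 0.477 FPKM in microglia, below each astrocyte library.

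Vim was lower in microglia by -2.18 (SE 0.57, adjusted p = 0.00793) in KO and by -1.62 (SE 0.63, adjusted p = 0.0495) in WT. WT microglia 1 and 2 held 46.4 and 23.7 FPKM of Vim and the other 4 microglia libraries 6.81 to 11.8 FPKM. The WT call was lost with any 1 of these libraries left out, WT astrocytes 1 or 2, KO astrocytes 3 or 4, WT microglia 2 or 3, or KO microglia 1, 2 or 3, with adjusted p from 0.0608 to 0.167. Emp1 was called lower in both genotypes (-1.80, adjusted p = 0.0280 in WT; -2.54, adjusted p = 0.00269 in KO), and the WT call was lost without WT astrocytes 1 or 3, KO astrocytes 2, or WT microglia 2 or 3 (adjusted p 0.0630 to 0.0965). Tm4sf1 was called in WT alone (adjusted p = 0.0473; in KO 0.529), and that call was lost without KO astrocytes 3 or 4, WT microglia 1 or 3 or any KO microglia library (adjusted p 0.0512 to 0.111). The interaction of genotype and cell type for Tm4sf1 was 1.08 (SE 0.74, adjusted p = 0.836), so a difference between the genotypes was not shown.

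The genes higher in microglia included several that carry the A1 and A2 names. Ggta1, an A1 gene, was 37.0, 27.9 and 16.5 FPKM in WT and 27.1, 30.9 and 30.8 FPKM in KO microglia and at most 2.10 FPKM in astrocytes, with log2 differences of 4.52 (SE 0.42) and 4.27 (SE 0.39). Clcf1, a ligand of the ciliary neurotrophic factor receptor and an A2 gene, was 13.1 to 31.9 FPKM in microglia and at most 0.687 FPKM in astrocytes. Fkbp5 was 13.1 to 21.6 FPKM in microglia. Srgn, the most abundant A1 gene of microglia, was 66.5, 24.3 and 19.95 FPKM in WT and 39.4, 26.3 and 27.1 FPKM in KO microglia. It was called in KO (4.04, SE 0.62, adjusted p = 0.000244) and not in WT (1.72, SE 0.67, adjusted p = 0.0505), where leaving out WT astrocytes 2 gave 2.75 (adjusted p = 0.00215) and leaving out WT microglia 3 gave 2.05 (adjusted p = 0.0436). The interaction for Srgn was 2.31 (SE 0.87, adjusted p = 0.722). Cd44 and Cp were not called in either genotype; in WT, Cd44 passed without WT astrocytes 1 (adjusted p = 0.0233) and Cp without WT microglia 3 (adjusted p = 0.0352).

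Among the pan-reactive genes, Hspb1 was 13.1 to 34.8 FPKM in microglia, with log2 differences of 2.76 (SE 0.65) in WT and 2.05 (SE 0.59) in KO. The 15 dissociation-induced genes described under Other observations summed to 2743 to 5798 FPKM in microglia and 70.2 to 90.6 FPKM in astrocytes. Of these 15, 14 were called higher in microglia in WT and 15 in KO. The part of dissociation in the microglial level of Hspb1, and of the other members higher there, was not tested. Lcn2 was 7.55, 3.90 and 1.59 FPKM in WT and 4.54, 3.54 and 1.32 FPKM in KO microglia and was called in both genotypes, with no fold given because the astrocytes are listed at 0. Nes was 7.64 to 10.2 FPKM in microglia, 5.77-fold above the astrocyte mean, with log2 differences of 1.91 (SE 0.29, adjusted p = 0.000271) in WT and 2.08 (SE 0.27, adjusted p = 7.23e-05) in KO. Every microglia library lay above every astrocyte library for Nes, the reverse of the order for Gfap. Vim was also lower in microglia by the means, but WT microglia 1 (46.4 FPKM) lay above KO astrocytes 1 and 3 (25.3 and 40.5 FPKM). Stat3 was 42.7 to 63.0 FPKM in microglia, 1.68-fold above astrocytes, with log2 differences of 0.81 (SE 0.22, adjusted p = 0.00885) in WT and 0.80 (SE 0.20, adjusted p = 0.00586) in KO. The WT call for Stat3 was lost without WT astrocytes 1 (0.64, adjusted p = 0.0538).

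Within microglia, no member was called between KO and WT. Of 16 members tested, 0 were called with limma and 1 had an unadjusted p under 0.05, beside 13 of 15889 genes called (0.0818%) and 7.96% of genes at an unadjusted p under 0.05. That gene was Cd44, at 15.8, 7.0 and 6.61 FPKM in WT and 2.84, 5.35 and 3.69 FPKM in KO microglia (log2 difference -1.05, SE 0.38, adjusted p = 0.596; -0.68, adjusted p = 0.407, without WT microglia 1). Groups did not overlap for Cd44 (lower in KO) and Stat3 (higher in KO, 0.24, SE 0.17, adjusted p = 0.739), and for 15.9% of all genes. The median difference of the 16 members was -0.34 beside 0.023 for all genes, and 12 of the 16 were negative. Without WT microglia 1 the median was -0.063, with 7 positive and 7 negative of 14 tested. Emp1, Tgm1 and Ptgs2 had a KO mean under 1 FPKM and passed the filter only through WT, so their differences are no support for a direction.

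WT microglia 1 was the highest of the 6 microglia libraries for Vim, S100a10, Emp1, Cd44, Srgn and Lcn2. Ggta1, Fkbp5, Nes, Tgm1, Slc10a6, Serpina3n and Gbp2 were highest there too. It was also the highest for 10 markers of border macrophages, monocytes and neutrophils, which summed to 690 FPKM there and to 253 to 424 FPKM in the other 5, and for 8 fibroblast and meningeal markers (31.2 FPKM against 9.33 to 11.2 FPKM). The same held for 8 neuron markers (48.5 FPKM against 4.82 to 11.9 FPKM) and 7 oligodendrocyte precursor markers (75.8 FPKM against 30.0 to 43.5 FPKM). Astrocyte markers (146 FPKM against 85.0 to 131 FPKM) and endothelial and mural markers (36.8 FPKM against 23.5 to 33.7 FPKM) were highest there as well. Oligodendrocyte, ependymal, Schwann cell and microglia markers were highest in other microglia libraries. The part of such cells in these values was not tested. Xist, the transcript of the inactive X chromosome, was 268 and 283 FPKM in WT microglia 1 and 2 and under 1 FPKM in the other 4 microglia libraries, so sex and genotype are largely joined in this comparison. With Xist as a covariate, the median difference of the members was 0.49. In that fit the genotype term in effect set WT microglia 3 alone against the KO libraries. The value therefore rests on 1 WT library and is not a genotype difference freed of sex. Without 1 library, 18 to 48 of all genes were called (48 without KO microglia 1, 32 without KO microglia 3, 27 without WT microglia 3, 23 without KO microglia 2).

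The authors' deposited table of genes changed in microglia lists 483 genes, of which 1 is a member. For Gfap the authors' deposited table gives normalised counts averaging 335 (WT) and 709 (KO), a log2 change of WT over KO of -0.94 and an adjusted p of 0.0409. From the FPKM, the KO minus WT difference of Gfap in microglia was 0.39 (SE 0.38, adjusted p = 0.761), the same direction without a call. Their deposited table of genes changed in astrocytes lists 10 genes and none of the 33. The test of whether a genotype difference itself differed between the cell types called 0 of 17 members, with 1 at an unadjusted p under 0.05 (Srgn), beside 23 of 16258 genes called (0.141%) and 6.62% at an unadjusted p under 0.05.

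Other genes of the reactive programme were likewise not called in astrocytes. Among 20 further genes of the reactive panels, 11 were tested in KO against WT astrocytes, 0 were called and 0 had an unadjusted p under 0.05, with a median of -0.034. The most abundant were the metal-binding metallothioneins Mt2 (1172 to 2993 FPKM) and Mt1 (872 to 2252 FPKM), the small heat-shock protein Cryab (61.9 to 209 FPKM) and the secreted chitinase-like protein Chil1 (38.5 to 113 FPKM). Cryab and Chil1 were both lowest in the 2 P9 libraries. C3, the complement component often used to mark A1 astrocytes, was 6.53, 0 and 2.28 FPKM in WT and 0.0659 to 0.901 FPKM in KO astrocytes (named after its values were seen).

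Of 27 ligands, receptors and signalling proteins that drive reactivity, 17 were tested in KO against WT astrocytes, 0 were called and 0 had an unadjusted p under 0.05, with a median of -0.0495. The receptors were divided between the cell types. Cntfr, the receptor of ciliary neurotrophic factor, was 129 to 424 FPKM in astrocytes and 0.545 to 5.67 FPKM in microglia. Lifr, a partner chain of gp130, was 33.4 to 48.5 FPKM in astrocytes and 10.8 to 14.3 FPKM in microglia. Il6ra, the receptor of interleukin-6, went the other way, at 0.0456 to 0.750 FPKM in astrocytes and 115 to 133 FPKM in microglia. Both cell types held Il6st, which encodes gp130, at 43.8 to 90.8 FPKM in astrocytes and 74.6 to 91.0 FPKM in microglia, and Jak1, the kinase bound to it, at 32.7 to 49.2 FPKM and 48.3 to 59.3 FPKM. Of the ligands, Osm was 14.9 to 19.8 FPKM in microglia and at most 0.0551 FPKM in astrocytes (named as the ligand of the member Osmr). These genes were chosen from the list after their values were seen.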

How the data were processed

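RNA of sorted cells was purified with TRIZOL and columns and made into libraries with NuGEN RNA-Seq V2, per the labels' protocols. The tools named in the submitters' processing notes are Cufflinks, Cuffnorm, DESeq2, HTSeq 0.6.1p1, Bowtie2 2.2.3, TopHat2 2.0.11 and FastQC, with GRCm38 as the build. Their settings, the annotation and the strand handling were not given in the sources used here. Levels come from a table in which the authors deposited FPKM for 39171 genes in the 13 libraries and, per the file headers, for both cell types a list of changed genes holding a normalised signal (DESeq2-style counts averaged by genotype), log2 fold changes of WT over KO, a test statistic score, and the p-value and adjusted p-value. No count test was run, since FPKM are not counts. Of the identifiers, 37605 (96.0%) were in GENCODE release 21, which supplied positions. The absolute depth is unknown, so no counting interval is given.

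Differences were tested two-sided with limma 3.58.1 in R 4.3.3 (lmFit, eBayes with trend) on log2(FPKM + 1), a scale that understates changes of low genes, for genes with a mean of at least 1 FPKM over the fitted libraries. Benjamini-Hochberg adjustment covered all genes tested. The replicates are biological, per the labels. The method was tested on simulated data. Values are printed for every library for the filament genes, members of at least 10 FPKM and members at an unadjusted p under 0.05; for the cell type contrasts also for the 5 members highest in microglia. The members and gene lists were chosen with earlier results of these data known. Alternatives were a pseudocount of 0.1, no filter, a filter at 5 FPKM, median-of-ratios and quantile scaling, array weights, no age term, P12 only, a fit of all 13 libraries, replicate number as a block and leaving out each library; Xist as a covariate was added after seeing the data.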

Additional observations from a re-analysis of the deposited data

Results flagged for a closer look

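Nes in KO astrocytes 4 was 0.467 FPKM, far below the other 3 KO astrocyte libraries (1.66 to 1.87 FPKM); its gap to the nearest of them was a larger share of the range of the 4 than the 95% critical value of Dixon's test allows. Of 20 members with a highest value of at least 1 FPKM in that group, this was the one that passed, and chance alone passes about 1 in 20. The depth of KO astrocytes 4 was 39.5% of the deepest microglia library, against 44.1% to 62.6% for the other KO astrocyte libraries.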

How the results depend on the processing

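Counts of called members stayed at 0 of the genes tested for KO against WT astrocytes, KO against WT microglia, P9 against P12 and the interaction in each alternative run, and at 14 for KO microglia against KO astrocytes without each library in turn; the WT cell type count ran from 11 to 14 there. The count of all genes called between KO and WT astrocytes was 3 and moved to 5 with a pseudocount of 0.1, 0 with no filter, 0 with P12 libraries only, 7 in the fit of all 13 libraries, 1 with Xist as a covariate, and 0 to 8 without 1 library (0 without WT astrocytes 3 or KO astrocytes 2, 1 without WT astrocytes 1, 8 without WT astrocytes 2, and 6 without KO astrocytes 1 or 4). With the replicate number as a block it was 0, and 0 members were called. That fit spends nearly all astrocyte libraries on its terms, and KO astrocytes 4 has no WT partner, so calls were hardly possible. Same-numbered libraries did not deviate together (correlations of -0.078 to 0.028). Age was not removed from these deviations, and WT astrocytes 3 and KO astrocytes 2, both P9, had a correlation of 0.13. For astrocytes, the WT and KO libraries numbered 2 differ in age, as do those numbered 3, so these numbers do not pair libraries of 1 age. Whether the other same-numbered libraries shared a litter or batch was not settled. Signs turned for Gfap (0.10 with P12 only; -0.20 to 0.10 without 1 library), Nes (0.046 with the replicate block; -0.28 to 0.046), Serpina3n (-0.014 to 0.21) and S100a10 (0.23 with P12 only; -1.09 to 0.23), none of which was called. Over all alternatives they also turned for Cd44 (-0.42 to 1.38), Cp (-0.93 to 0.12), Fkbp5 (-0.67 to 0.28), Emp1 (-0.18 to 0.32) and Osmr (-0.19 to 0.092), again without a call. The cause was not tested. WT cell type calls were also lost with no filter for Vim (adjusted p = 0.0865), Emp1 (0.0542) and Tm4sf1 (0.0588), with a pseudocount of 0.1 for Emp1 (0.0547) and Tm4sf1 (0.0776), with array weights for Vim (0.0787) and Tm4sf1 (0.214), with median-of-ratios scaling for Vim (0.0553) and with P12 only for Emp1 (0.0628). Under quantile scaling the WT cell type split of all genes moved from 4737 higher and 3980 lower in microglia to 3764 and 4930, and the median of all genes from 0.21 to -0.065. Depth limits the members under 1 FPKM most.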

Other observations

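Socs3, the feedback inhibitor of STAT3 signalling, was 0.871, 1.77 and 1.96 FPKM in WT and 0.122, 0.284, 0 and 0.0583 FPKM in KO astrocytes, and 68.5, 58.2 and 77.6 FPKM in WT and 45.4, 38.2 and 42.7 FPKM in KO microglia (named after its values were seen). The groups did not overlap in either cell type. Among the genes that passed the filter, the same held for 4.68% in astrocytes and 15.9% in microglia. In astrocytes Socs3 did not reach the filter of 1 FPKM, so that share does not cover it. With no filter, limma gave a log2 difference of -1.13 (SE 0.18, adjusted p = 0.877). In microglia the difference was -0.67 (SE 0.17, adjusted p = 0.517), so neither was called. Summed FPKM of 15 immediate-early and heat-shock genes that dissociation induces was 4216 to 5798 in WT and 2743 to 3176 in KO microglia, and 80.1 to 90.6 in WT and 70.2 to 89.3 in KO astrocytes; its part in the Socs3 values was not tested.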
